A study of Homo sapiens with 6 samples.

Results

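The miRNAs described here are 10 of the 2588 mature miRNA entries measured in exosomes that HCT116, an established line of human colorectal carcinoma cells, released into its medium. They are hsa-miR-25-3p, hsa-miR-92a-3p, hsa-miR-92b-3p and hsa-miR-363-3p of the miR-25/92 seed family, the other arm of miR-92b (hsa-miR-92b-5p), and hsa-miR-17-5p, hsa-miR-20a-5p, hsa-miR-19b-3p, hsa-miR-93-5p and hsa-miR-106b-5p, their cluster mates in the miR-17-92 and miR-106b-25 polycistrons. They were taken by exact name, and all 10 were listed in each of the 6 deposited tables. Of them, 5 had at least 1 read, 5 had 0 reads in all libraries, and 4 passed the filter for testing. The prefix hsa-, for human, is left off below. Cells carried either a control siRNA (siCTL, n = 3 libraries) or an siRNA against PRDX3, the gene of a mitochondrial peroxiredoxin (siPRDX3, n = 3 libraries). Both groups were microporated, kept for 40 h and then held for 24 h in medium with nanoparticle-free serum, from which exosomes were isolated by kit. All libraries come from this single cell line. Whether replicates were separate cultures is not stated in the labels, and the p-values therefore cover the spread among 3 libraries a group, which could be technical. A sentence of the series' design text names another siRNA and endothelial cells, and the sample titles were followed instead. A miRNA assay does not measure PRDX3 mRNA, so the knockdown could not be checked.

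A miRNA is cut from a hairpin whose 2 arms each give a mature strand, named 5p and 3p. Its seed, bases 2 to 8 of the mature strand, pairs with target mRNAs, so miRNAs that share a seed share many targets. The miR-17-92 polycistron is a single MYC-activated transcript that is cut into several hairpins of different seeds, is often amplified in B-cell lymphoma and is overexpressed in colorectal tumours. The miR-106a-363 cluster on the X chromosome and the miR-106b-25 cluster within the replication gene MCM7 are its paralogs. Cluster members are transcribed together, but their mature strands need not accumulate, or leave the cell, in equal amounts. miR-92a-3p and miR-25-3p are also abundant in blood cells and serum.

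The mature sequences, from RefSeq on GRCh38.p14 and matched by name for 10 of the 10 miRNAs, are shown by seed because the families differed in their reads. The seed stands in capitals. Those that share the seed AUUGCAC are:
miR-92a-3p: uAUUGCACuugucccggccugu
miR-92b-3p: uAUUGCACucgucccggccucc
miR-25-3p: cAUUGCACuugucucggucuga
miR-363-3p: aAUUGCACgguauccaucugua

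Those that share the seed AAAGUGC, which makes up the miR-17 family, are:
miR-17-5p: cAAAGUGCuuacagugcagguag
miR-20a-5p: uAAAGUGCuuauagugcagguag
miR-93-5p: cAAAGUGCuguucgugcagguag
miR-106b-5p: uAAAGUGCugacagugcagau

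The remaining pair have other seeds, that of miR-19b-3p belonging to the miR-19 family:
miR-19b-3p: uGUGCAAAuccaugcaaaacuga
miR-92b-5p: aGGGACGGgacgcggugcagug

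Aligned from the 5′ end, miR-92a-3p was identical to miR-92b-3p at 19 of 22 positions and to miR-25-3p at 18 of 22. It matched miR-363-3p at 10 of 22. miR-17-5p and miR-20a-5p were identical at 21 of 23 positions. The way the authors divided reads between such close sequences is not given in the sources used here, so the split between miR-92a-3p, miR-92b-3p and miR-25-3p is uncertain. The same holds for a count of 0 in the closely similar miR-17 family: it says that no read was assigned to the entry, and the part of multiply mapped reads in it was not tested.

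In GENCODE v29 on GRCh38, the 6 hairpins of miR-17-92 lie within 787 bases of chromosome 13 (91350605 to 91351391, plus strand) and overlap exons of the non-coding host gene MIR17HG. The 6 hairpins of miR-106a-363 lie within 901 bases of the X chromosome (134169378 to 134170278, minus strand), in exons of the non-coding transcript AC002407.1. The 3 hairpins of miR-106b-25 lie within 515 bases of chromosome 7 (100093560 to 100094074, minus strand), in introns of MCM7. The hairpin of miR-92b stands alone on chromosome 1 (155195177 to 155195272, plus strand) and overlaps an exon of AC234582.1. miR-92a-3p and miR-19b-3p each have 2 hairpins, one on chromosome 13 and one on the X chromosome, and their reads cannot be assigned to either. The files name no genome build, and these positions were not used to count reads.

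The deposited values are log2 levels, from which whole reads were recovered library by library. The libraries held between 40146 and 230946 reads assigned to miRNAs, and 644115 in all, which is shallow for 2588 entries. The entry miR-4451 took from 11.8% of reads in siPRDX3 1 to 76.9% in siCTL 2. siCTL 1 and siCTL 2 stood apart from the other libraries: of the 80 tested miRNAs, 30 and 23 had no read there, against 0 in siCTL 3 and 1 to 8 in siPRDX3. The fold changes of the tested members are therefore also given without these libraries. Beside a share stands its exact 95% interval (Clopper-Pearson), and where no read was found the limit is the share that 3 reads would make; both cover counting error only, since reads copied by PCR, with no molecular identifiers, are not separate molecules. Different miRNAs, which are of nearly equal length and were counted by whole reads, are compared in reads or in shares of reads. These comparisons, between members or between arms, are of reads and not of molecular amounts. How evenly different sequences were captured in the libraries was not tested.

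Of the 12 mature arms listed for miR-17-92, 1 had reads, namely miR-92a-3p, and the other 11 had 0 reads in all 6 libraries. Of the 12 arms of miR-106a-363, which share miR-92a-3p and miR-19b-3p with the first cluster, 2 had reads: miR-92a-3p, and miR-363-5p with 1 read each in siCTL 2 and siPRDX3 1. Of the 6 arms of miR-106b-25, 4 had reads. Both arms of miR-92b had reads. Over the 30 different entries of these loci, 8 had at least 1 read and 22 were at 0. That share is close to the 26.5% of all 2588 entries that had a read in any library, so the number of arms with a read is not particular to these loci.

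**Figure D1:**
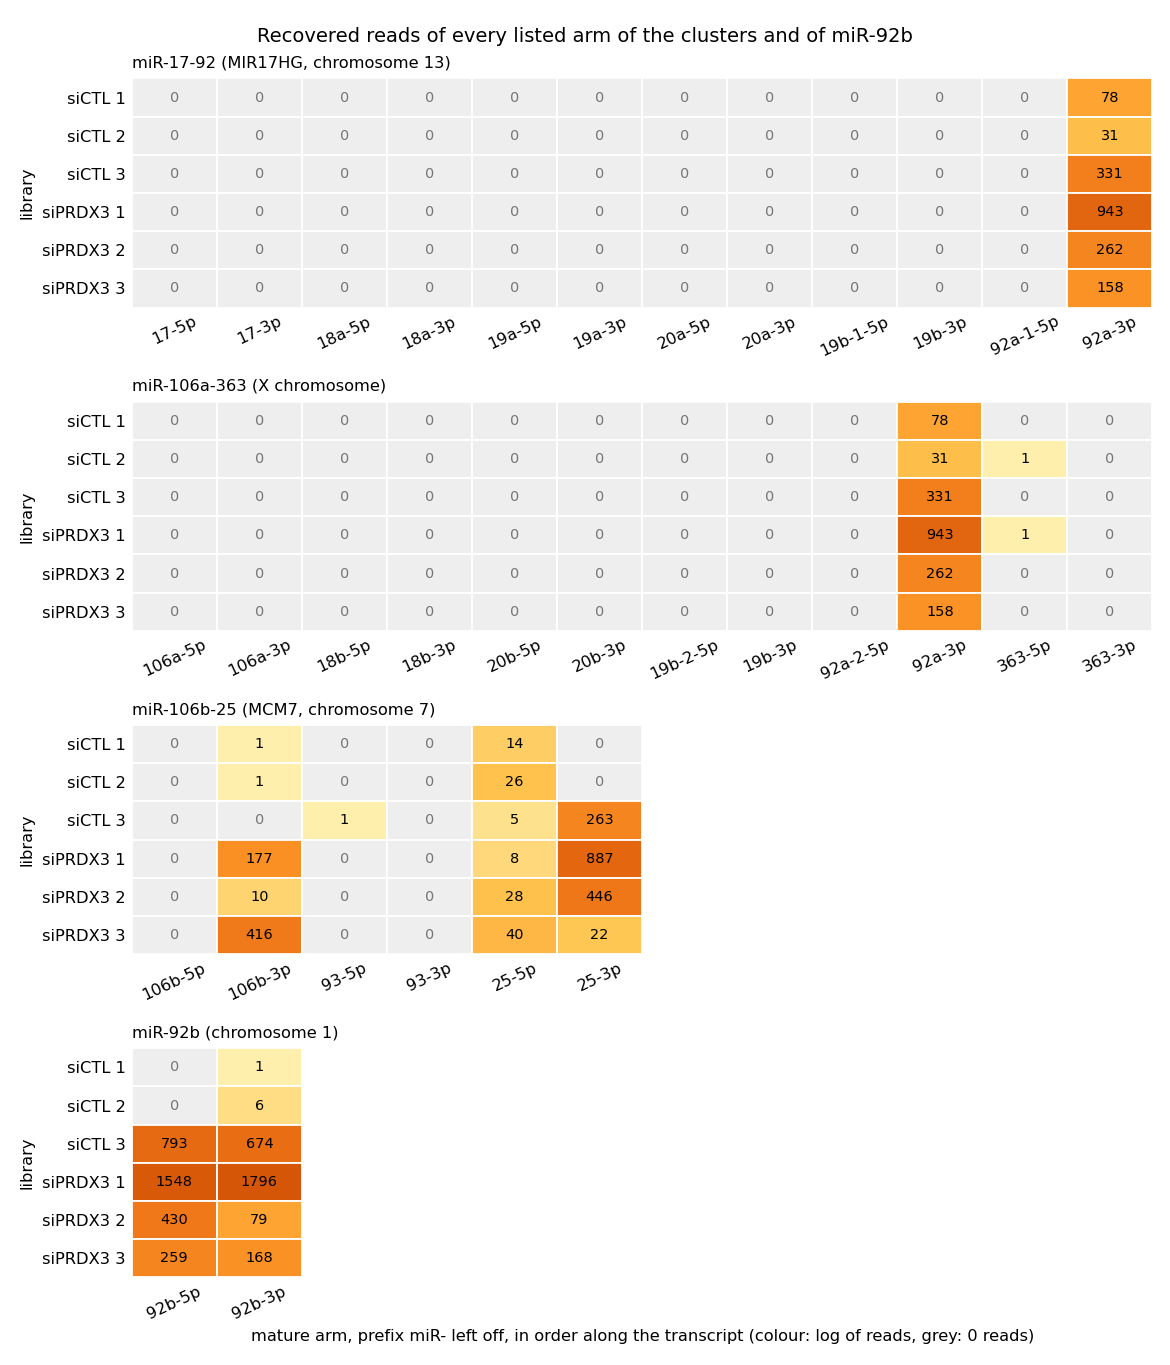
Recovered reads of every mature arm listed for the miR-17-92, miR-106a-363 and miR-106b-25 clusters and for miR-92b, in columns ordered along the transcript, with the 6 libraries in rows. Colour follows the logarithm of the reads and grey marks 0. In miR-17-92 the single column with reads is miR-92a-3p (31 to 943 reads), while miR-25-3p and both miR-92b arms have few or no reads in siCTL 1 and siCTL 2.

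Of the 10 members, miR-17-5p, miR-20a-5p, miR-19b-3p, miR-106b-5p and miR-363-3p had 0 of the 644115 assigned reads. In counting terms alone this is a share of at most 0.000466% for each over all libraries. In a single library the limit ran from 0.00130% in siPRDX3 1 to 0.00747% in siCTL 1. miR-93-5p, a member of the miR-17 family that lies next to miR-25 in MCM7, had 1 read, in siCTL 3. The 8 entries with the seed AAAGUGC, counting also miR-106a-5p, miR-20b-5p, miR-519d-3p and miR-526b-3p, had this 1 read in all, and the 2 entries of the miR-19 family had 0. In contrast, the 6 entries with the seed AUUGCAC had 6171 reads. Those without a read among them were miR-363-3p and miR-367-3p, a miRNA of pluripotent cells.

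miR-92a-3p, which comes from a hairpin in each of the miR-17-92 and miR-106a-363 clusters, is the one member with more than a few reads in every library. siCTL 1, 2 and 3 held 78, 31 and 331 reads of it, and siPRDX3 1, 2 and 3 held 943, 262 and 158. As shares of reads these were 0.194% (95% interval 0.154 to 0.242), 0.0383% (0.0260 to 0.0544) and 0.265% (0.238 to 0.296) in siCTL, and 0.408% (0.383 to 0.435), 0.271% (0.239 to 0.306) and 0.224% (0.190 to 0.261) in siPRDX3. siCTL 2 was the low library, and the groups overlapped. It ranked between 18th, in siCTL 1, and 47th, in siPRDX3 3, among the entries of a library. The siCTL mean was 0.166% ± 0.116 and the siPRDX3 mean 0.301% ± 0.0960 (SD, n = 3 each). With miR-4451, which took most of siCTL 2, left out of the totals, the means were 0.289% ± 0.112 in siCTL and 0.451% ± 0.0738 in siPRDX3.

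miR-25-3p, the mature strand of the miR-106b-25 cluster that carries the miR-92 seed, had 0 reads in each of siCTL 1 and siCTL 2 and 263 reads in siCTL 3, next to 887, 446 and 22 in siPRDX3 1, 2 and 3. siCTL 3 lay between the siPRDX3 libraries, so the groups overlapped. Over the 4 libraries with reads, its share ran from 0.0311% in siPRDX3 3 (95% interval 0.0195 to 0.0471) to 0.461% in siPRDX3 2 (0.420 to 0.506), a 14.8-fold range. The lowest share elsewhere, that of siPRDX3 3, was 4.17 times the limit in siCTL 1 and 8.40 times that in siCTL 2. These totals include miR-4451, and without it both multiples would be smaller, most of all that in siCTL 2.

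The other arm of the same hairpin behaved differently. miR-25-5p, usually the minor strand, was counted 14, 26 and 5 times in siCTL 1, 2 and 3 and 8, 28 and 40 times in siPRDX3 1, 2 and 3, so it had reads in all 6 libraries. It made up 100% of miR-25 reads in siCTL 1 (14 of 14, 95% interval 76.8 to 100) and in siCTL 2 (26 of 26, 86.8 to 100). Its share of the hairpin was 1.87% in siCTL 3, 0.894% in siPRDX3 1 and 5.91% in siPRDX3 2, and 64.5% in siPRDX3 3 (51.3 to 76.3). The hairpin is shown to locate the arms, which stand in capitals, the 5p arm first (bases 14 to 34) and the 3p arm second (bases 52 to 73), read from the minus strand of chr7:100093560-100093643 in GRCh38.p14.
MIR25: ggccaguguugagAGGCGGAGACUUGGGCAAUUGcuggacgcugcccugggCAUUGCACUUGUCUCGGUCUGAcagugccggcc

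The same cluster also gave the 3p strand of miR-106b while its 5p strand, a member of the miR-17 family, had none. miR-106b-3p was counted 1, 1 and 0 times in siCTL 1, 2 and 3 and 177, 10 and 416 times in siPRDX3 1, 2 and 3, and it reached too few libraries to be tested. Its seed, CGCACUG, is shared with no other entry of the tables that matched RefSeq.
miR-106b-3p: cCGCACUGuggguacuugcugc

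Different strands thus led the miR-106b-25 locus in different libraries: miR-25-5p in siCTL 1 and siCTL 2, miR-25-3p in siCTL 3, siPRDX3 1 and siPRDX3 2, and miR-106b-3p in siPRDX3 3, where it made up 87.0% of the locus (95% interval 83.7 to 89.9). Summed over its 6 arms, the locus took 0.0374%, 0.0334% and 0.216% of reads in siCTL 1, 2 and 3, against 0.464%, 0.501% and 0.676% in the siPRDX3 libraries 1, 2 and 3. Every siPRDX3 library lay above every siCTL library in this sum, also with miR-4451 left out of the totals (0.0739%, 0.144% and 0.258% against 0.526%, 0.958% and 1.13%). The sum was singled out after the values were seen and is given as a description without a test; as shares of reads, 12.5% of the 80 tested miRNAs had all siPRDX3 libraries above all siCTL libraries.

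**Figure D2:**
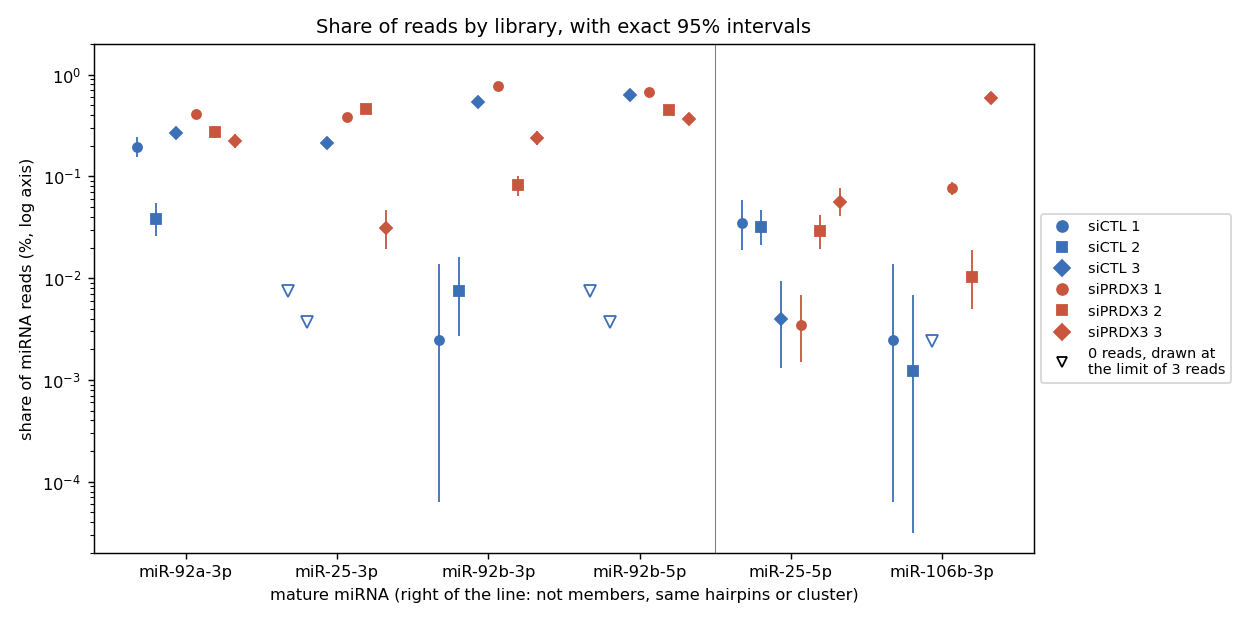
Share of miRNA reads (%, log axis) of the 4 tested members, and of miR-25-5p and miR-106b-3p from the same loci, in each library; bars are exact 95% Clopper-Pearson intervals and open triangles mark 0 reads, drawn at the limit of 3 reads. miR-92a-3p stays between 0.0383% and 0.408%, whereas miR-25-3p and miR-92b-5p have no read in siCTL 1 and siCTL 2.

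miR-92b, a relative of miR-92a from its own gene, had the most reads of the family over all libraries, and both of its strands were found (3030 reads of 5p and 2724 of 3p, against 1803 of miR-92a-3p and 1618 of miR-25-3p). miR-92b-3p, which carries the family seed, had 1 read in siCTL 1, 6 in siCTL 2 and 674 in siCTL 3, next to 1796, 79 and 168 in siPRDX3 1, 2 and 3. Its shares were 0.00249%, 0.00741% and 0.540% against 0.778%, 0.0817% and 0.238%, so by share siCTL 3 again lay among the siPRDX3 libraries. miR-92b-5p, the opposite strand with an unrelated seed, had no read in siCTL 1 and siCTL 2, 793 in siCTL 3, and 1548, 430 and 259 in siPRDX3 1, 2 and 3. Its shares in the 4 libraries that held it were 0.636% in siCTL 3 and 0.670%, 0.445% and 0.366% in siPRDX3, a 1.83-fold range. The lowest of these shares was 49.0 times the limit in siCTL 1 and 98.9 times that in siCTL 2. Here too miR-4451 is counted in the totals, and without it the multiples would be smaller, most of all in siCTL 2. On the log2 levels used for testing, siCTL 3 was instead the highest library for both strands. It stood at 12.392 for miR-92b-3p and 12.627 for miR-92b-5p, next to 12.383 and 12.169 in siPRDX3 1, the next highest.

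The 5p strand of miR-92b made up 54.1% of the hairpin's reads in siCTL 3 (95% interval 51.5 to 56.6), 46.3% in siPRDX3 1 (44.6 to 48.0), 84.5% in siPRDX3 2 (81.0 to 87.5) and 60.7% in siPRDX3 3 (55.8 to 65.3). The intervals of the 3 siPRDX3 libraries did not overlap, so the strand ratio varied within that group beyond counting error, and siCTL 3 lay within its range. Summed over the libraries, the lesser arm of miR-92b took 47.3% of its reads. Among the 101 miRNA names with both arms listed and at least 100 reads over both, miR-92b was the 1 in which the lesser arm took at least 30%; miR-23b came next with 27.6%, miR-25 stood at 6.96%, and the median was 0%. These limits were chosen after the miR-92b reads were seen. The hairpin is printed with its arms in capitals, 5p (bases 20 to 41) before 3p (bases 61 to 82), read from the plus strand of chr1:155195177-155195272 in GRCh38.p14.
MIR92B: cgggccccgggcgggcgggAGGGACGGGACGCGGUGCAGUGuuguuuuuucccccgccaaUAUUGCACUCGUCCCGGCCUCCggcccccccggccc

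**Figure D3:**
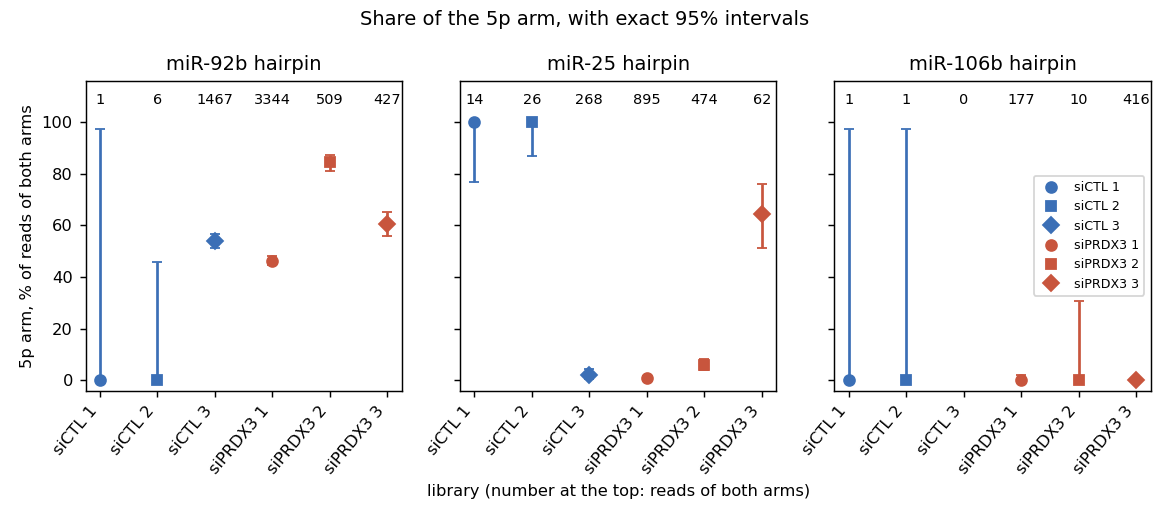
Share of the 5p arm among the reads of both arms of the miR-92b, miR-25 and miR-106b hairpins (%), by library, with exact 95% Clopper-Pearson intervals and the number of reads at the top of each panel. The arms of miR-92b have similar numbers of reads in siCTL 3 and siPRDX3 1, miR-25 changes from 0.894% to 100% between libraries, and miR-106b shows the 3p arm alone.

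The order of the 4 tested members differed between libraries. In siCTL 1 and siCTL 2, miR-92a-3p made up 98.7% (95% interval 93.1 to 99.97) and 83.8% (68.0 to 93.8) of their summed reads. In the other libraries it made up 16.1% to 26.0%. miR-92b-5p led in siCTL 3 (38.5%, 36.4 to 40.6) and siPRDX3 3 (42.7%, 38.7 to 46.7), and miR-92b-3p in siPRDX3 1 (34.7%, 33.4 to 36.0). In siPRDX3 2 miR-25-3p (36.6%, 33.9 to 39.4) and miR-92b-5p (35.3%, 32.6 to 38.1) did not differ beyond their intervals. miR-25-3p and miR-92a-3p were likewise not apart in siPRDX3 1 (17.1% and 18.2%, with overlapping intervals). Together the 10 members took 0.197%, 0.0457% and 1.65% of all reads in the siCTL libraries 1, 2 and 3, against 2.24%, 1.26% and 0.859% in siPRDX3 1, 2 and 3.

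Whether depletion of PRDX3 altered these miRNAs was tested with limma on the log2 levels of all 80 tested miRNAs, with Benjamini-Hochberg adjustment. None of the 4 tested members passed an adjusted p of 0.05, where 0% of the 80 miRNAs passed (smallest adjusted p = 0.184), and 0 of the 4 had an unadjusted p under 0.05, against 7.5% of the 80. limma-voom also called 0 of the 80, with 12 of them, among which 1 member, at an unadjusted p under 0.05. Libraries of the 2 groups overlapped for 4 of the 4, on the log2 levels and as shares of reads; they did not overlap for 16.2% of the 80 on the log2 levels and for 15% as shares. The log2 level of miR-92a-3p averaged 10.53 ± 1.10 over siCTL and 10.79 ± 0.70 over siPRDX3 (SD, n = 3 each), which is a difference of 0.26 (SE 1.33; limma, adjusted p = 0.881). It was 1.21 (SE 1.41) with library totals and 1.26 (SE 1.62) in limma-voom with TMM, with limma adjusted p-values of 0.701 and 0.687. For miR-92b-3p the levels were 8.004 ± 3.96 and 10.55 ± 1.66, a difference of 2.55 (SE 2.30; limma, adjusted p = 0.590). The fold changes of miR-25-3p and miR-92b-5p, 6.39 (SE 3.34) and 7.29 (SE 3.48), had a limma adjusted p of 0.491 each and depend on the 1 that was added before the logarithm, because siCTL 1 and siCTL 2 were at 0. All 4 lay above 0, as did 63.8% of the 80 miRNAs, and their median was 4.47 against 1.72 over the 80. The cluster mate miR-25-5p, also tested, stood at −0.83 on the log2 scale (SE 1.93; limma, adjusted p = 0.778). Its sign turned positive when library totals set the scale (0.11) and in limma-voom with TMM (0.54).

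Both the size and the direction rested on the siCTL libraries. Without siCTL 3, miR-25-3p (limma adjusted p = 0.00906) and miR-92b-5p (limma adjusted p = 0.00267) passed, 2 of the 4 members against 25% of the 80 miRNAs, while miR-92b-3p (0.0754) and miR-92a-3p (0.702) did not. Over the other settings tried, these adjusted p-values ran up to 0.851 for miR-25-3p and 0.813 for miR-92b-5p. Without siCTL 1 and siCTL 2 the fold changes of all 4 were below 0, at −0.97 for miR-25-3p, −0.58 for miR-92a-3p, −1.84 for miR-92b-3p and −1.12 for miR-92b-5p, as were 78.8% of the fold changes of the 80, and 0 passed, with 0 of the 4 and 3.75% of the 80 at an unadjusted p under 0.05 by limma. The fold change of miR-92a-3p was also below 0 without siCTL 2 (−0.36) and without siPRDX3 1 (−0.07). In the fit without siCTL 1 and siCTL 2, siCTL 3 alone stands for its group and is assumed to vary like the siPRDX3 libraries. miR-25-3p and miR-92b-5p were 2 of the 17 tested miRNAs (21.2% of the 80) with no read in siCTL 1 and siCTL 2 both; a tested miRNA needed reads in at least 3 libraries, so the reverse pattern could not enter.

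**Figure D4:**
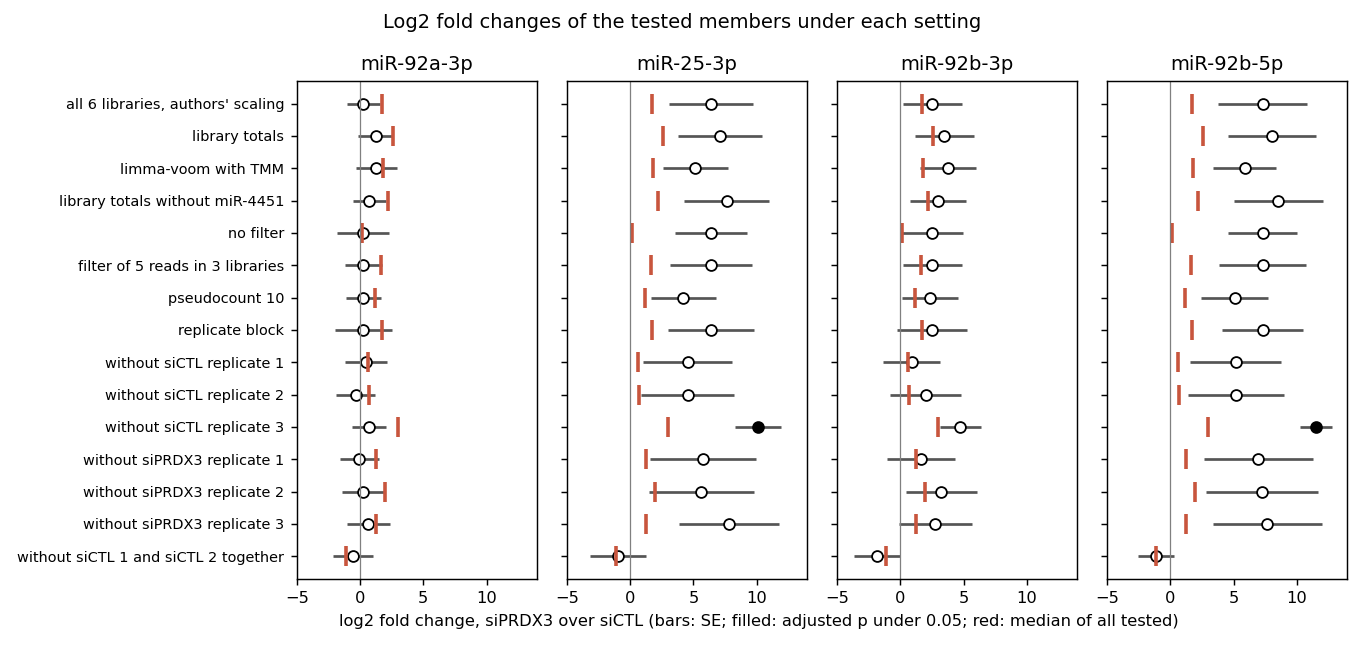
Log2 fold change of siPRDX3 over siCTL, with its SE, for the 4 tested members under each setting; filled points have a limma adjusted p under 0.05 and red ticks mark the median of all tested miRNAs. Points are filled for miR-25-3p and miR-92b-5p without siCTL 3, and all 4 members lie below 0 without siCTL 1 and siCTL 2.

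The members with reads were richer in G and C than those without any. miR-92b-5p, miR-92b-3p, miR-92a-3p and miR-25-3p have 72.7%, 63.6%, 54.5% and 50% G or C. The 5 members without any read have 39.1% to 47.8%, and miR-93-5p, with its 1 read, 52.2%. Among the 2281 entries matched to a RefSeq sequence, the share with at least 1 read was 15.3% below 40% GC, 22.98% from 40 to under 50%, 28.8% from 50 to under 60%, 33.3% from 60 to under 70% and 36.0% above. The 4 tested members are 22 bases long, and 4 of the 6 others are 23 bases long. Over all entries length made little difference: 24.5% of all matched entries of 22 bases and 27.1% of those of 23 bases had a read. These are descriptions of a small set, with no test.

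By the mean absolute difference of log2 levels over the 6 libraries, each centred on its own mean, the tested miRNAs nearest to miR-92a-3p were let-7b-5p (0.51), miR-151a-3p (0.57) and let-7a-5p (0.57), against a median of 2.71 over the 79 others. Of the members that share its seed, miR-92b-3p ranked 31st (2.06) and miR-25-3p 65th (4.21). Those nearest to miR-25-3p were miR-222-3p (0.95), miR-92b-5p (1.06) and miR-3529-3p (1.13), against a median of 3.63; each of the 3 had 0 reads in siCTL 1 and siCTL 2. miR-92b-3p ranked 19th from miR-25-3p (2.44), so it lay nearer to either seed mate than these lay to each other. All these distances rest on the 6 libraries together, and none is given without siCTL 1 and siCTL 2.

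A further miRNA with the AUUGCAC seed, miR-32-5p, encoded outside these clusters, had 26 reads in siCTL 2, where miR-25-3p had 0, and 0 reads in the other 5 libraries.
miR-32-5p: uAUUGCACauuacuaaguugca

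Because miR-92a-3p and miR-25-3p are also miRNAs of blood cells, markers of other sources were read in the same libraries. Of 5 erythrocyte entries 4 had reads and miR-144-3p was at 0; their summed share was 4.15% to 5.58% in siCTL and 1.09% to 3.54% in siPRDX3. Most of this sum was miR-486-5p and miR-451a, with 11984 and 6156 reads over all libraries. miR-486-3p had 535 reads and miR-144-5p had 7. Of 5 leukocyte and platelet entries 2 had reads, with a summed share of 0% in siCTL and up to 0.406% in siPRDX3. These were miR-146a-5p, with 287 reads in siPRDX3 3 alone, and miR-142-5p, with 11 reads in siPRDX3 1 alone. The other entries, miR-223-3p, miR-142-3p and miR-150-5p, were at 0. The liver pair, led by miR-122-5p, took 0.0593% to 5.35% and 2.44% to 9.63%. Of 2 endothelial entries 1 had reads (up to 0.00401% and 0.218%), as did 1 of 5 fibroblast and smooth muscle entries (up to 0.00160% and 0.00707%). Intestinal epithelial and colorectal entries, the ones that fit the labelled cell line, took 0.0729% to 1.27% in siCTL and 0.107% to 0.546% in siPRDX3. Over all libraries together, 8 of the 9 had reads. By library this number was 8 for siCTL 3, 7 for siPRDX3 1, 5 for siPRDX3 3, 3 for siPRDX3 2, 3 for siCTL 1 and 2 for siCTL 2. miR-21-5p made up most of the list's reads in siCTL 1 (37 of 40), siCTL 2 (55 of 59) and siPRDX3 2 (92 of 103). Its part was smaller elsewhere: 133 of 1580 reads for siCTL 3, 559 of 1260 for siPRDX3 1 and 23 of 225 for siPRDX3 3. The part of these sources in the reads of the miR-25/92 family was not tested.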

How the data were processed

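Small-RNA libraries of exosomal RNA were sequenced for siCTL (3) and siPRDX3 (3). The authors deposited 1 table per library with log2 values for 2588 mature miRNAs; per the submitters' processing notes, the tools included Bowtie2 and bedtools 2.25.0, in roles not stated there. Build, annotation, scaling and treatment of multiply mapped reads: not given in the sources used here. Taken as log2(x + 1), x lies on whole multiples of 1 step per library, from 2.97 to 25.0, and all values (100%) up to 100 reads were within 0.1 of a whole read. Reads of abundant entries are approximate, since values have 3 decimals. The sums of x differ between libraries (474714 to 1616280), so x is no plain CPM.

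limma 3.58.1 (R 4.3.3) with a mean-variance trend was fitted to the deposited log2 values, two-sided, without covariates, and p-values were adjusted over 80 miRNAs. These reached, in at least 3 libraries, the CPM of 10 reads in a library of median size (113), with at least 15 reads in all. Positive fold changes mean higher in siPRDX3. The script was tested on simulated data, which checked the code and did not measure its power in these libraries. Alternatives varied scaling, filter, pseudocount, the replicate block and the libraries used. Sequences are RefSeq's (GRCh38.p14), hairpin positions GENCODE v29's.

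Named are the 10 members, cluster mates and seed kin with at least 10 reads, and the 3 nearest profiles of miR-92a-3p and of miR-25-3p; miR-363-5p and arm comparisons were chosen after values were seen. The members and lists were chosen with earlier results of these data known.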

Additional observations from a re-analysis of the deposited data

How the results depend on the processing

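Over 14 alternative settings, 48 of the 56 fold changes of the 4 tested members kept their direction and their side of the threshold, 2 passed it and 6 changed sign. The number of miRNAs past the threshold was 0 throughout, except that leaving out 1 library in turn gave 0 to 20 over all miRNAs and 0 to 2 over the members, the highest without siCTL 3. Without siCTL 1 and siCTL 2 together the log2 fold changes were −0.97 for miR-25-3p, −0.58 for miR-92a-3p, −1.84 for miR-92b-3p and −1.12 for miR-92b-5p. That of miR-92a-3p ran from −0.36 (without siCTL 2) to 0.68 (without siCTL 3) when 1 library was left out, and was −0.07 without siPRDX3 1. The cause was not tested. Scaling moved the sizes. With library totals they were 7.11 for miR-25-3p, 1.21 for miR-92a-3p, 3.497 for miR-92b-3p and 8.01 for miR-92b-5p, and the median over all tested miRNAs moved from 1.72 to 2.57. With miR-4451 left out of the totals, 19 of the 24 shares of these members moved beyond their 95% interval. This follows from the size of miR-4451 and is no test, since every share above 0 in a library rises by the same factor. The shares of 0, those of miR-25-3p and miR-92b-5p in siCTL 1 and siCTL 2, could not move.

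With the replicate number as a replicate block, 0 miRNAs and 0 members passed, and miR-92b-5p had a fold change of 7.29 (limma adjusted p = 0.438). Deviations of same-numbered libraries correlated at −0.24, 0.18 and 0.14, within the range of −0.36 to 0.33 for libraries of different number. Whether same-numbered libraries share a batch is not stated in the labels and cannot be told from these few values. For a member at 0, counting error alone allows a share of up to 0.00747% in siCTL 1, the shallowest library, and 0.00130% in siPRDX3 1, the deepest; the treatment of multiply mapped reads is unknown and its part in these counts was not tested.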
